A study of Mus musculus with 28 samples.

Results

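Antenatal N-acetyl cysteine (NAC) in the lungs of newborn mice lacking both HRas and NRas was examined by setting 4 arrays of DKO+NAC lungs against 5 arrays of DKO lungs, 9 of the 28 arrays of the series, chosen by their source labels. DKO+NAC animals were double knockouts born to females given 0.5% NAC at pH 7.4 throughout pregnancy, and DKO animals were double knockouts whose mothers, by the labels, received none. The same treatment was also applied to Control (4 Control+NAC and 3 Control arrays), HRas-KO (3 and 3) and NRas-KO (3 and 3) animals, which serve here only to show where the double knockout differs. All lungs were taken on postnatal day 0, each array held the RNA of 1 animal's whole lung, and the series describes the double knockouts as dying of severe respiratory distress. The dose was given to the mother while n counts newborns, the labels name no strain or litter, and one note carried by every record lists only 3 samples as treated although the source labels mark 14 arrays as NAC, so that the groups rest on those labels. The titles of the 3 HRas-KO+NAC arrays also do not mention NAC, unlike the titles of the other NAC groups. Values are log2 RMA signals (robust multi-array average, a background-corrected and quantile-normalised probe set summary), and a change of 1 is a doubling. The comparison covered 22180 genes, each through the brightest of the probe sets that name that gene alone.

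NAC is an acetylated form of cysteine. It scavenges oxidants itself and supplies cysteine, the limiting amino acid of glutathione synthesis by glutamate-cysteine ligase and glutathione synthetase. HRas and NRas are small GTPases that pass growth factor receptor signals to the RAF, MEK and ERK kinases. At birth the lung clears its fluid through the epithelial sodium channel of alveolar cells, type 2 cells secrete surfactant, type 1 cells form the thin gas exchange surface, and this surface lies on a basement membrane of type IV collagen, laminins, nidogen and perlecan shared with the capillaries.

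The targeted gene was read first. Nras was at 7.61, 7.74, 7.56 and 8.08 in the 4 DKO+NAC lungs and at 7.74, 7.64, 7.40, 7.70 and 7.66 in the 5 DKO lungs, and the 2 groups overlapped (log2 change 0.12 ± 0.10, SE; limma adjusted p = 0.51). The library labelled DKO+NAC 4, at 8.08, lay within the range of the 3 Control arrays (8.07 to 8.35) and nearer their mean of 8.24 than the DKO mean of 7.63, so this gene did not bear out its label. Without it 2553 genes were called, 1270 higher and 1283 lower, and no gene named below lost its call in DKO+NAC against DKO. Hras was not analysed here. The tissue was lung in both groups: Sftpc, the gene of surfactant protein C, was at 13.11 to 13.16 in DKO+NAC lungs and 13.05 to 13.23 in DKO lungs, Ager of type 1 cells at 11.48 to 11.75 in DKO+NAC and 11.52 to 11.81 in DKO lungs, and Pecam1 of endothelium at 10.81 to 10.95 in DKO+NAC and 10.85 to 10.98 in DKO lungs. Xist was high in all 4 DKO+NAC lungs (10.84 to 11.07) and in DKO arrays 1 and 3 (10.36 and 9.92) but low in DKO arrays 2, 4 and 5 (3.95, 4.33 and 4.06), so the groups also differed in this transcript of the inactive X chromosome of females. The sample codes in the titles had 4 different starts in the DKO+NAC group and 3 in the DKO group, and 0 starts were shared between an untreated and a NAC array of any genotype. DKO arrays 1, 2 and 3 carried the same start, and whether these 3 lungs were independent of one another is not known. What the codes mean is not stated, and the treatment and any difference between those coded sets cannot be told apart.

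Antenatal NAC went with changed levels of many genes in double knockout lungs, most of them by less than 2-fold. At a Benjamini-Hochberg adjusted p below 0.05 in limma, 2706 of the 22180 genes changed, which is 12.2%. Of these, 1273 (5.74%) rose and 1433 (6.46%) fell. Their median absolute log2 change was 0.47, and 100 genes (0.451%) passed both the test and a 2-fold change, 49 of them higher and 51 lower in DKO+NAC. In 1724 of the called genes the 4 and 5 arrays did not overlap, against 2283 genes (10.3%) without overlap among all tested, 4.97% higher and 5.32% lower. The median log2 change over all genes was 0.02. The count was 2045 without the third DKO+NAC array and 2838 without the third DKO array. It was 1476 in a fit of the 9 arrays alone, 988 with the mean level of the small RNA genes described below as a covariate, 2130 with the Xist level as a covariate, 2148 against DKO arrays 1 and 3 alone, and 2516 against DKO arrays 2, 4 and 5 alone. The small RNA level itself did not overlap between the 2 groups, so that covariate and the group cannot be fully told apart. Calls can therefore end under it through lost precision, a smaller change or both, and which of these held was not tested. Under it some log2 changes shrank and others hardly moved, as given below for single genes.

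The genes that rose most included regulators of the actomyosin cytoskeleton, polyamine balance and ubiquitin. Myl12a, a regulatory light chain of non-muscle myosin, was at 9.93, 9.79, 9.71 and 9.81 in DKO+NAC lungs and at 7.30, 7.45, 8.05, 7.44 and 7.41 in DKO lungs. Its lowest DKO+NAC array stood well above its highest DKO array, the third, and its log2 change of 2.28 ± 0.25 (limma adjusted p = 3.9e-06) was the largest rise among the called genes. Azin1, which frees ornithine decarboxylase from its antizyme, was at 9.70, 9.46, 9.42 and 9.38 in DKO+NAC lungs and at 7.95, 8.52, 8.29, 8.40 and 8.50 in DKO lungs (log2 change 1.16 ± 0.12, adjusted p = 3.0e-06), again without overlap. Usp12, a deubiquitinase, was at 8.55, 8.01, 8.26 and 8.13 in DKO+NAC lungs against 7.27, 7.0, 7.46, 6.83 and 6.98 in DKO lungs (1.13 ± 0.13, adjusted p = 4.6e-06), and every treated lung was above every untreated one. Nabp1, a subunit of a single-stranded DNA binding complex, changed by 1.61 ± 0.34, with 5.67 to 7.41 in DKO+NAC lungs and 4.26 to 5.30 in DKO lungs. Vamp7, a SNARE of late endosomes and lysosomes, changed by 1.06 ± 0.16, and Klhl28, a kelch-repeat protein, by 1.03 ± 0.13. Ppp1r14c, an inhibitor of protein phosphatase 1, changed by 1.07 ± 0.15, and neither it nor Vamp7 or Klhl28 overlapped between the groups. Olfm4, a secreted glycoprotein of neutrophils and epithelia, averaged 7.95 ± 0.62 in DKO+NAC lungs and 6.68 ± 0.34 in DKO lungs (SD), and its adjusted p of 0.014 became 0.077 without the third DKO+NAC array, its highest.

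The genes that fell most, chosen by the same rule of non-overlap, included basement membrane and fibrillar matrix genes, chromatin regulators and striated muscle genes. Hspg2 encodes perlecan, the heparan sulphate proteoglycan of basement membranes. It was at 8.03, 8.32, 8.09 and 8.19 in DKO+NAC lungs and at 9.66, 9.38, 9.39, 10.03 and 9.70 in DKO lungs, a log2 change of -1.47 ± 0.16 (adjusted p = 3.9e-06), and the highest treated lung was more than 1 log2 unit below the lowest untreated one. Kmt2d, a histone H3 lysine 4 methyltransferase, was at 7.44, 7.89, 7.73 and 7.52 in DKO+NAC lungs against 9.22, 8.83, 8.91, 9.24 and 9.0 in DKO lungs (-1.39 ± 0.18, adjusted p = 2.2e-05). Lrp1, an endocytic receptor for protease complexes and matrix proteins, was at 8.40, 8.65, 8.38 and 8.47 in DKO+NAC lungs against 9.61, 9.58, 9.57, 9.92 and 9.52 in DKO lungs (-1.17 ± 0.13, adjusted p = 4.1e-06). None of the 3 genes overlapped between the groups. Rasd1, a Ras-related GTPase that is induced by glucocorticoids, was at 5.64, 6.19, 6.06 and 6.73 in DKO+NAC lungs and at 7.64, 7.97, 7.61, 7.29 and 8.26 in DKO lungs (-1.60 ± 0.28, adjusted p = 0.00046). Tnfrsf10b, a receptor for the death ligand TRAIL, was at 5.72, 6.91, 6.33 and 6.34 in DKO+NAC lungs and at 8.14, 7.81, 7.91, 7.22 and 7.43 in DKO lungs (-1.37 ± 0.23, adjusted p = 0.00030). Got1, the cytosolic aspartate aminotransferase, which also acts on cysteine sulfinate, was at 6.45, 6.71, 6.78 and 6.97 in DKO+NAC lungs and at 8.18, 7.80, 7.70, 7.77 and 8.35 in DKO lungs (-1.24 ± 0.14, adjusted p = 5.8e-06). All 3 were lower in every treated lung than in every untreated lung.

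**Figure D1:**
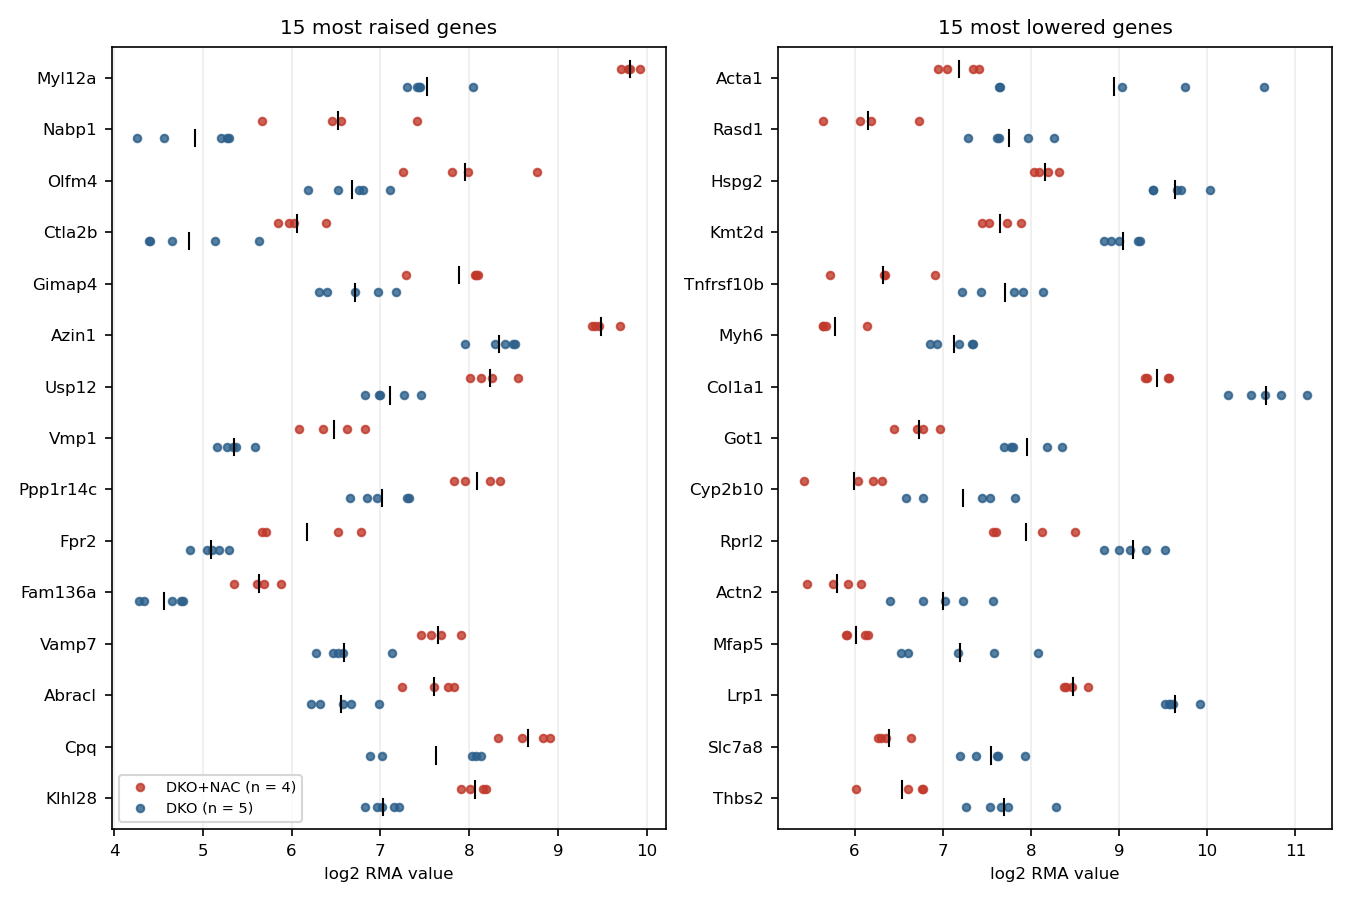
Log2 RMA values of the 15 most raised (left) and 15 most lowered (right) genes named by rule, with 1 point per lung; red points are the 4 DKO+NAC arrays, blue points below them the 5 DKO arrays, and black ticks the group means. The 2 colours do not overlap in any row because non-overlap was part of the rule; Myl12a has the widest gap on the left, and Acta1 shows DKO arrays spread from 7.64 to 10.64.

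Of the muscle genes among the most lowered, Acta1 rested mainly on a few untreated lungs, whereas Myh6 was at similar levels in all 5. Acta1, skeletal muscle actin, was at 7.34, 7.41, 6.94 and 7.05 in DKO+NAC lungs and at 10.64, 7.65, 9.03, 7.64 and 9.75 in DKO lungs (log2 change -1.76 ± 0.46, adjusted p = 0.012), so DKO arrays 1, 3 and 5 stood apart from arrays 2 and 4. In a fit of the 9 arrays alone its adjusted p was 0.068. Of 30 skeletal muscle genes, 6 fell and 0 rose, 20% of the list beside 12.2% of all genes, with a median of -0.38. Their mean deviation lay between -0.30 and -0.17 in the DKO+NAC lungs and was 0.86, -0.05, 0.24, -0.17 and 0.51 in DKO lungs 1 to 5. Of 22 heart muscle genes, 5 fell and 0 rose (22.7% of the list), and 2 fell without DKO+NAC array 4 or without DKO arrays 1 and 3. For the skeletal muscle list 14 fell against DKO arrays 1 and 3 alone and 3 against arrays 2, 4 and 5 alone. Myh6, the atrial myosin heavy chain, was at 6.14, 5.68, 5.64 and 5.64 in DKO+NAC lungs and at 7.34, 6.93, 7.33, 6.86 and 7.18 in DKO lungs (-1.35 ± 0.22, adjusted p = 0.00020), with the first treated lung above the other treated lungs and below every untreated one. In whole lung RNA, fewer cells of a type and less RNA per cell cannot be told apart.

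Many matrix genes of fibroblasts fell. Of 38 genes of fibroblasts, collagen matrix and elastic fibres, 17 fell and 1 rose, 47.4% of the list beside 12.2% of all genes, with a median log2 change of -0.33 against 0.02 over all genes. Col1a1, the main fibrillar collagen chain, was at 9.29, 9.56, 9.32 and 9.57 in DKO+NAC lungs and at 10.50, 10.65, 10.24, 11.13 and 10.84 in DKO lungs (-1.24 ± 0.19, adjusted p = 0.00016). Fbn2, a fibrillin of developing microfibrils, was at 6.36, 6.74, 7.05 and 7.0 in DKO+NAC lungs and at 8.05, 7.68, 7.77, 7.56 and 8.0 in DKO lungs (-1.02 ± 0.16, adjusted p = 0.00014). Neither gene overlapped between the groups. Mfap5, a microfibril glycoprotein, fell by 1.17 on the log2 scale, and its 4 DKO+NAC lungs (5.90 to 6.15) were tighter than its 5 DKO lungs (6.53 to 8.08). Tcf21, a transcription factor of lung mesenchyme, was the single gene of the list that rose, with 9.70 to 10.20 in DKO+NAC lungs and 9.23 to 9.50 in DKO lungs (0.58 ± 0.17, adjusted p = 0.022). The call of Tcf21 ended without DKO+NAC array 2 or 3 (adjusted p = 0.087 and 0.068) and against DKO arrays 1 and 3 alone (0.18). It also ended with the Xist or skeletal muscle level as a covariate (0.084 and 0.11). The number of genes that fell was 9 against DKO arrays 1 and 3 alone, 20 against arrays 2, 4 and 5 alone, and 13 in each of 4 other settings (the Xist, skeletal muscle or small RNA level as a covariate, and without the fourth DKO+NAC array).

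The basement membrane members shared this direction. Col4a1 and Col4a2 encode the 2 chains of the common type IV collagen. Col4a1 was at 9.46, 9.15, 9.27 and 9.22 in DKO+NAC lungs and at 10.20, 9.99, 10.12, 10.21 and 10.43 in DKO lungs (-0.92 ± 0.14, adjusted p = 9.4e-05). Col4a2 was at 9.09, 8.90, 8.90 and 9.15 in DKO+NAC lungs against 10.00, 9.88, 9.57, 10.02 and 10.12 in DKO lungs (-0.91 ± 0.13, adjusted p = 7.3e-05), and both chains were lower in every treated lung. The laminin genes were grouped after their values had been seen: 7 of 10 (70.0%) fell and 0 rose, beside 6.46% lower of all genes, with a median of -0.39. Lama5, the alpha chain of adult-type epithelial laminins, changed by -0.92 on the log2 scale, Lamb2 by -0.69 and Lamc1 by -0.62. Nid1, which bridges laminin and collagen IV, fell by 0.67, and Agrn, a heparan sulphate proteoglycan, by 0.66. In each of these 5 genes the DKO+NAC and DKO arrays did not overlap. Among 44 genes whose symbols begin with Col, likewise grouped afterwards, 11 fell and 0 rose.

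Mural and endothelial genes moved in both directions. Of 23 smooth muscle and pericyte genes, 7 fell and 2 rose (39.1% of the list beside 12.2% of all genes, median -0.27), and 1 fell and 0 rose with the small RNA level as a covariate. Pdgfrb, the PDGF receptor of pericytes and fibroblasts, was at 9.59, 9.56, 9.49 and 9.38 in DKO+NAC lungs and at 10.63, 10.22, 9.92, 10.45 and 10.17 in DKO lungs (-0.77 ± 0.12, adjusted p = 0.00010). Its ligand gene Pdgfb, made by endothelium, rose: 8.68, 8.83, 8.75 and 8.02 in DKO+NAC lungs against 7.08, 7.71, 6.81, 8.31 and 8.17 in DKO lungs (0.95 ± 0.25, adjusted p = 0.013). The Pdgfrb arrays did not overlap, whereas the fourth DKO+NAC array of Pdgfb lay inside the DKO range. Nes, the intermediate filament nestin of pericytes and immature cells, rose to 8.30, 8.03, 7.97 and 7.51 in DKO+NAC lungs, against 7.02, 6.93, 6.14, 7.25 and 7.29 in DKO lungs (1.03 ± 0.23, adjusted p = 0.0041). The calls of Nes and Pdgfb ended with the small RNA level as a covariate, at adjusted p = 0.056 and 0.17 (log2 changes 1.05 and 0.84). That of Pdgfb also ended in a fit of the 9 arrays alone, at 0.079.

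Of 24 genes of VEGF, Notch and angiopoietin signalling, 9 fell and 3 rose (50% of the list beside 12.2% of all genes, median -0.18), and of 30 blood endothelial genes 6 fell and 2 rose (26.7%, median -0.10). In each list 2 genes fell with the small RNA level as a covariate. Notch1, a receptor that restrains sprouting, was at 7.99, 8.29, 8.08 and 8.03 in DKO+NAC lungs and at 8.60, 9.04, 8.96, 9.03 and 8.97 in DKO lungs (-0.82 ± 0.12, adjusted p = 8.2e-05). Jag2, a Notch ligand, changed by -0.75 ± 0.11 (adjusted p = 6.5e-05), and neither gene overlapped. Vwf, the von Willebrand factor of endothelium, changed by -0.65 ± 0.11, with 6.25 to 6.66 in DKO+NAC lungs and 7.01 to 7.37 in DKO lungs. Flt1, the decoy VEGF receptor, changed by -0.51 ± 0.11 (8.47 to 8.72 in DKO+NAC lungs, 8.84 to 9.28 in DKO lungs). Kdr, the main signalling VEGF receptor, was at 9.83, 9.86, 9.75 and 9.59 in DKO+NAC lungs and 9.02, 9.59, 8.81, 9.75 and 9.33 in DKO lungs. Its change of 0.46 ± 0.13 (adjusted p = 0.025) lost the call without DKO array 1 or 3 or DKO+NAC array 1, 2 or 3, at adjusted p of 0.055 to 0.078. The change of Kdr was 0.21 with the small RNA level as a covariate (adjusted p = 0.56) and 0.20 without both DKO arrays 1 and 3 (0.3). Its adjusted p was 0.25 with the skeletal muscle level as a covariate and 0.15 in a fit of the 9 arrays alone. The adjusted p of Flt1 was 0.094 with the small RNA level as a covariate. Of 22 genes of the hypoxia response 5 fell and 0 rose (22.7%), and 3 fell without DKO+NAC array 4 and 1 against DKO arrays 1 and 3 alone.

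Epithelial genes divided by function. Lung fluid clearance and ion transport had 5 of 19 genes lower and 2 higher (36.8% of the list beside 12.2% of all genes, median -0.22), and the lower ones included all 3 subunits of the epithelial sodium channel. Scnn1a was at 10.50, 10.13, 9.96 and 10.25 in DKO+NAC lungs and at 11.39, 10.81, 11.35, 10.82 and 11.07 in DKO lungs (-0.88 ± 0.13, adjusted p = 6.8e-05). Scnn1g was at 10.70, 10.34, 10.24 and 10.51 in DKO+NAC lungs against 11.28, 10.79, 11.18, 10.93 and 11.37 in DKO lungs (-0.67 ± 0.12, adjusted p = 0.00060). Both genes separated the groups, with DKO array 2 the lowest untreated lung in each. Scnn1b, named after its values were seen, was at 8.03, 7.76, 7.69 and 7.57 in DKO+NAC lungs and at 9.08, 8.06, 9.17, 8.06 and 8.32 in DKO lungs (-0.78 ± 0.18, adjusted p = 0.0056, and 0.072 in a fit of the 9 arrays alone). Clcn2, a chloride channel, changed by -0.58 ± 0.09 and had 6.01 to 6.29 in DKO+NAC lungs against 6.64 to 6.79 in DKO lungs. Slc12a2, the basolateral chloride importer of secreting epithelia, moved the other way: 10.93, 10.76, 10.79 and 10.94 in DKO+NAC lungs, 10.13, 10.17, 10.55, 10.28 and 10.28 in DKO lungs (0.58 ± 0.10, adjusted p = 0.00025), also without overlap.

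Of 22 type 1 cell genes, which share the sodium channel subunits, 7 fell and 1 rose (36.4% of the list beside 12.2% of all genes), whereas of 27 surfactant and type 2 cell genes 4 rose and 4 fell (29.6%, median 0.04). The type 2 list had 10 higher and 3 lower against DKO arrays 1 and 3 alone (median 0.20). Lamp3, a lysosomal membrane protein of lamellar bodies, was at 11.21, 11.34, 11.34 and 11.02 in DKO+NAC lungs and at 9.83, 10.78, 10.02, 10.74 and 10.46 in DKO lungs (0.86 ± 0.14, adjusted p = 0.00019). Napsa, the protease that matures surfactant protein B, was at 9.80, 9.81, 9.76 and 9.48 in DKO+NAC lungs and at 10.26, 10.09, 10.32, 10.17 and 10.35 in DKO lungs (-0.53 ± 0.09, adjusted p = 0.00023). Lamp3 was thus higher and Napsa lower in every treated lung. The surfactant protein genes Sftpc (0.00 ± 0.06, adjusted p = 1) and Sftpb (0.03 ± 0.10, adjusted p = 0.90) did not pass the test. Of 22 club cell genes 4 rose and 4 fell, 36.4% of the list. Cyp2b10, a cytochrome P450, was at 6.31, 6.04, 6.21 and 5.42 in DKO+NAC lungs and 7.82, 6.77, 7.53, 7.45 and 6.58 in DKO lungs (-1.23 ± 0.26, adjusted p = 0.0022). With the small RNA level as a covariate the change of Cyp2b10 was -0.63 (adjusted p = 0.27). Of 28 ciliated cell genes 6 fell and 2 rose (28.6%), among them Ccdc40, a cilium assembly gene, which fell by 0.50 on the log2 scale. The ciliated count depended on the untreated lungs, with 5 higher and 2 lower against DKO arrays 1 and 3 alone and 0 higher and 10 lower against DKO arrays 2, 4 and 5 alone. Foxj1, the master regulator of motile cilia, changed by 0.03 ± 0.12 (adjusted p = 0.93).

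**Figure D2:**
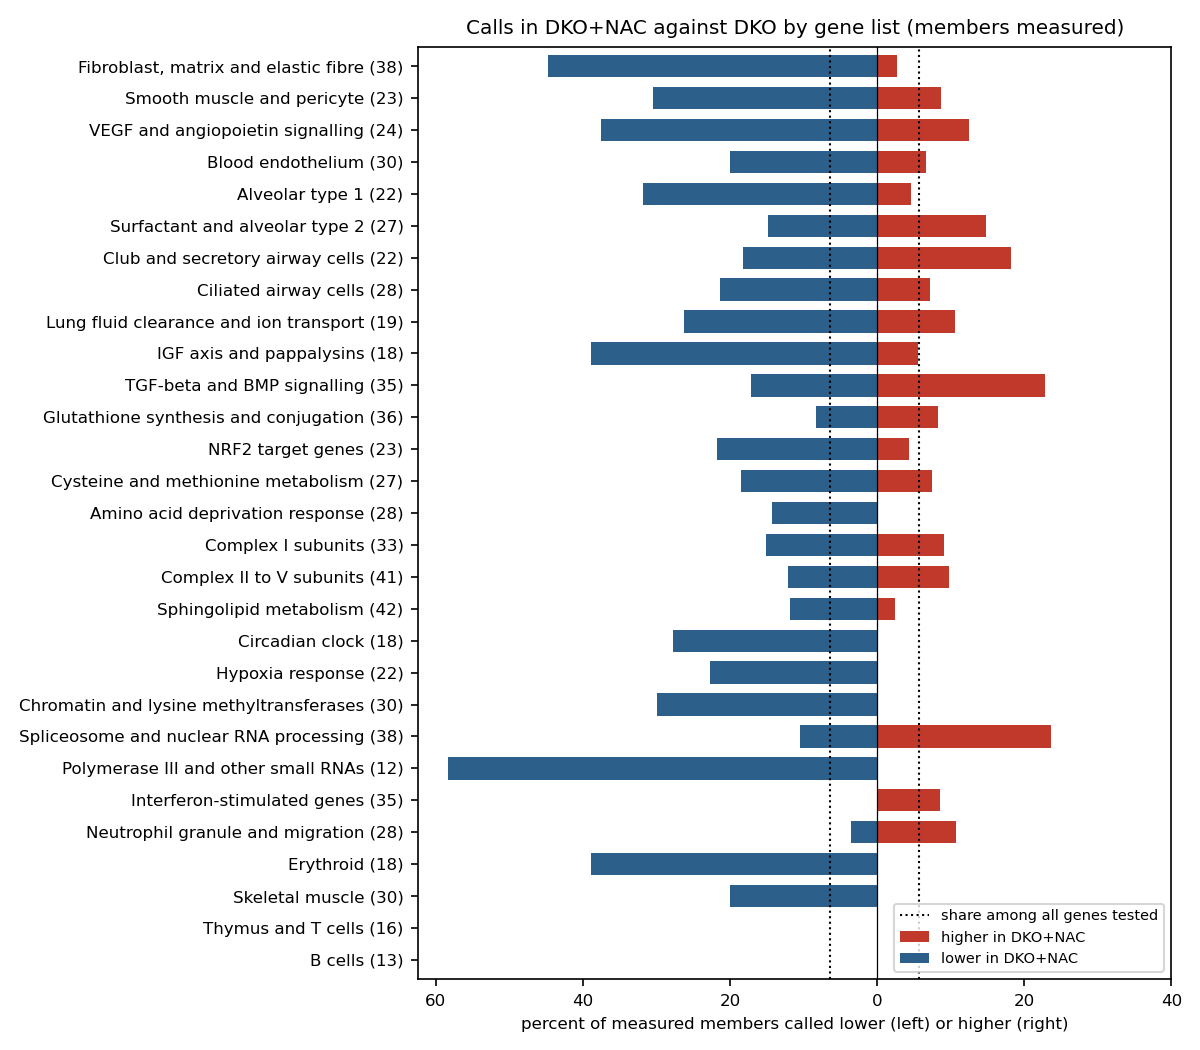
Percent of the measured members (number in brackets) of most lists described here that limma called lower (blue, to the left) or higher (red, to the right) in DKO+NAC against DKO; dotted lines mark the shares among all genes tested, 6.46% lower and 5.74% higher. The matrix list reaches 17 lower of 38 members, the small RNA list 7 of 12, and both lymphocyte lists have 0 calls.

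Genes of glutathione synthesis and use showed no common direction. Of 36 genes, 3 rose and 3 fell, a called share of 16.7% beside 12.2% of all genes, and the median was 0.00. The catalytic subunit Gclc of glutamate-cysteine ligase was at 10.97, 10.65, 10.31 and 11.55 in DKO+NAC lungs and at 11.00, 11.78, 10.68, 11.64 and 11.95 in DKO lungs (-0.54 ± 0.27, adjusted p = 0.22). Its modifier Gclm changed by 0.05 ± 0.14 (adjusted p = 0.87), glutathione synthetase Gss by 0.04 ± 0.10 (adjusted p = 0.88), and the cystine importer Slc7a11 by 0.19 ± 0.21 (adjusted p = 0.64). Gsta4, a glutathione transferase for lipid peroxidation products, did fall: 8.01, 7.98, 8.40 and 7.78 in DKO+NAC lungs against 8.58, 8.92, 8.59, 9.17 and 9.02 in DKO lungs (-0.81 ± 0.14, adjusted p = 0.00037), without overlap. Abcc1, which exports glutathione conjugates, changed by -0.49 ± 0.11 (6.72 to 7.0 in DKO+NAC lungs, 7.30 to 7.57 in DKO lungs).

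Of 23 targets of the oxidant sensor NRF2, 5 fell and 1 rose (26.1% of the list beside 12.2% of all genes, median -0.14). Against DKO arrays 1 and 3 alone, the untreated lungs that were high in Xist, 0 fell and 2 rose (median 0.03), and with the Xist level as a covariate 1 fell and 1 rose. Nqo1, the quinone reductase, was at 4.92, 4.92, 5.05 and 5.13 in DKO+NAC lungs and at 5.30, 5.45, 5.40, 5.87 and 5.68 in DKO lungs (-0.53 ± 0.12, adjusted p = 0.0033), low levels on this scale but not overlapping. Its adjusted p was 0.13 against DKO arrays 1 and 3 alone. Srxn1, which repairs oxidised peroxiredoxins, changed by -0.59 with an adjusted p of 0.026, and lost the call without DKO array 2, 4 or 5 or DKO+NAC array 1 or 3, at adjusted p of 0.067 to 0.095. Against DKO arrays 1 and 3 alone the change of Srxn1 was -0.08 (adjusted p = 0.85). Hmox1 (-0.51 ± 0.21, adjusted p = 0.12) and Txnrd1 (-0.14 ± 0.18, adjusted p = 0.69) did not pass the test. Msrb3, which reduces methionine sulfoxide, rose to 8.75, 8.82, 8.77 and 8.81 in DKO+NAC lungs, against 8.16, 8.46, 8.32, 8.24 and 8.47 in DKO lungs (0.46 ± 0.08, adjusted p = 0.00042), and was above every untreated lung.

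Of 27 genes of cysteine and methionine metabolism 5 fell and 2 rose, 25.9% of the list beside 12.2% of all genes. Besides Got1, the lysosomal cystine exporter Ctns fell: 7.65, 7.65, 7.59 and 7.22 in DKO+NAC lungs against 8.71, 8.24, 7.81, 8.41 and 8.41 in DKO lungs (-0.79 ± 0.13, adjusted p = 0.00037). The groups did not overlap, and DKO array 3 was the untreated lung nearest the treated ones. Sqor, which oxidises hydrogen sulfide, changed by 0.54 ± 0.13 (adjusted p = 0.0081), and Suox, sulfite oxidase, by -0.65 ± 0.14 (adjusted p = 0.0036); with the small RNA level as a covariate these were 0.11 and 0.24. Of 28 genes of the response to amino acid shortage 4 fell and 0 rose, 14.3% of the list beside 12.2% of all genes, and 1 fell against DKO arrays 1 and 3 alone. Slc7a5, the large neutral amino acid carrier, was at 8.06, 8.23, 8.03 and 8.05 in DKO+NAC lungs and at 9.34, 8.60, 8.92, 8.97 and 8.98 in DKO lungs (-0.87 ± 0.15, adjusted p = 0.00030, and 0.065 with the small RNA covariate). Slc7a8, a second carrier of neutral amino acids, was at 6.26, 6.64, 6.30 and 6.35 in DKO+NAC lungs and 7.38, 7.19, 7.63, 7.93 and 7.62 in DKO lungs (-1.16 ± 0.16, adjusted p = 3.6e-05). Both carriers were lower in every treated lung.

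The series title names respiratory chain and sphingolipid genes for the double knockout. Calls among the former were mixed, and the fewer calls among the latter were mostly lower. Of 33 complex I genes 5 fell and 3 rose (24.2% of the list beside 12.2% of all genes, median -0.09), and of 41 genes of complexes II to V 5 fell and 4 rose (22%, median -0.01). Against DKO arrays 1 and 3 alone these were 2 lower and 1 higher for complex I, and 0 lower and 2 higher for the others. Ndufc2, a complex I subunit, was at 9.48, 9.61, 9.73 and 9.44 in DKO+NAC lungs and at 8.72, 8.80, 9.22, 8.83 and 8.72 in DKO lungs (0.71 ± 0.10, adjusted p = 5.1e-05). Ndufa3, another subunit, was at 8.89, 9.27, 9.16 and 8.74 in DKO+NAC lungs against 9.62, 9.82, 9.37, 9.78 and 9.75 in DKO lungs (-0.65 ± 0.13, adjusted p = 0.0011), so 2 subunits of 1 complex separated the groups in opposite directions. Cox8a of complex IV changed by -0.67 ± 0.12 and Uqcrb of complex III by 0.86 ± 0.19. With the small RNA level as a covariate the adjusted p of Ndufa3 was 0.051 and that of Uqcrb 0.056. Of 42 sphingolipid genes 5 fell and 1 rose (median -0.07), 14.3% of the list beside 12.2% of all genes, and 8 fell and 3 rose against DKO arrays 1 and 3 alone. The list's median NAC change was 0.09 in Control, 0.09 in HRas-KO and 0.10 in NRas-KO lungs. In the limma test of the difference described below, 5 of the 42 lay below the mean of the other genotypes and 0 above, beside 1.73% below of all genes. Smpd4, a neutral sphingomyelinase, was at 7.58, 7.54, 7.73 and 7.46 in DKO+NAC lungs and at 8.43, 8.20, 7.98, 8.47 and 8.38 in DKO lungs (-0.71 ± 0.11, adjusted p = 0.00019). Sphk1, which makes sphingosine 1-phosphate, was at 6.67, 6.69, 6.73 and 6.72 in DKO+NAC lungs and at 7.20, 7.09, 7.29, 7.22 and 7.28 in DKO lungs (-0.51 ± 0.09, adjusted p = 0.00043). Both enzymes were lower in every treated lung, and the ceramidase Asah1 changed by 0.13 ± 0.11 (adjusted p = 0.51).

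In the endoplasmic reticulum, 3 of 25 genes of the unfolded protein response rose and 3 fell, 24% of the list beside 12.2% of all genes. Hspa5, the main luminal chaperone, was at 8.10, 8.14, 8.12 and 8.46 in DKO+NAC lungs and at 8.78, 8.75, 8.59, 8.80 and 8.72 in DKO lungs (-0.52 ± 0.09, adjusted p = 0.00024). Dnajb9, its co-chaperone, moved the other way, with 9.27, 9.50, 9.36 and 9.30 in DKO+NAC lungs and 8.48, 8.56, 8.77, 8.50 and 8.70 in DKO lungs (0.76 ± 0.15, adjusted p = 0.0013). Neither gene overlapped. Of 17 glycolysis genes 3 fell and 1 rose (23.5%, median -0.06), whereas against DKO arrays 1 and 3 alone 1 fell and 4 rose (median 0.22), and with the Xist level as a covariate 1 fell and 2 rose (median 0.10). Slc2a1, the basal glucose carrier, was at 8.83, 9.43, 9.46 and 9.53 in DKO+NAC lungs and at 9.97, 10.28, 10.04, 10.37 and 10.19 in DKO lungs (-0.86 ± 0.15, adjusted p = 0.00055), lowest in the first treated lung and without overlap.

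Signalling genes downstream of Ras had calls in both directions. Of 20 feedback and target genes of the ERK pathway, 5 fell and 2 rose, 35% of the list beside 12.2% of all genes. Of 27 Ras isoforms and regulators 4 fell and 3 rose, 25.9% of the list. Against DKO arrays 1 and 3 alone the ERK list had 2 lower and 3 higher, and without DKO+NAC array 4 it had 2 lower and 1 higher and the Ras list 2 lower and 3 higher. Of 28 immediate early genes 2 fell and 1 rose, 10.7% of the list and near the share of all genes, and 1 fell and 2 rose against DKO arrays 1 and 3 alone. Egr1, a transcription factor induced by ERK, was at 5.87, 6.46, 6.12 and 5.69 in DKO+NAC lungs and at 8.56, 7.33, 8.12, 6.36 and 7.21 in DKO lungs (-1.48 ± 0.34, adjusted p = 0.0049), and DKO array 4 lay inside the treated range. With the small RNA level as a covariate its log2 change was -0.71 (adjusted p = 0.37). Of 23 p53 targets 4 fell and 2 rose, 26.1% of the list. Cdkn1a, the cell cycle inhibitor p21, which glucocorticoids also induce, was at 10.32, 10.38, 10.24 and 10.71 in DKO+NAC lungs and at 11.34, 11.35, 10.93, 11.25 and 11.37 in DKO lungs (-0.84 ± 0.11, adjusted p = 2.5e-05), without overlap.

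Growth factor systems also changed. Of 18 genes of the insulin-like growth factor axis 7 fell and 1 rose (44.4% of the list beside 12.2% of all genes, median -0.35). Igfbp7, a binding protein of vessels, was at 10.31, 10.56, 10.43 and 10.25 in DKO+NAC lungs and at 10.96, 11.32, 10.84, 11.29 and 11.38 in DKO lungs (-0.77 ± 0.13, adjusted p = 0.00028). Pappa, a protease that releases the growth factors from their binding proteins, was at 7.38, 7.08, 6.94 and 6.58 in DKO+NAC lungs and at 8.89, 7.36, 9.05, 7.37 and 8.03 in DKO lungs (-1.14 ± 0.26, adjusted p = 0.0044, and 0.069 in a fit of the 9 arrays alone). Igfbp7 separated the groups, whereas DKO arrays 2 and 4 of Pappa lay just inside the treated range. Of 35 TGF-beta and BMP genes 8 rose and 6 fell (40%), and 5 rose and 6 fell without DKO+NAC array 4 or with the Xist level as a covariate. Tgfb1, the ligand, was at 8.18, 8.66, 8.38 and 7.95 in DKO+NAC lungs and at 9.12, 9.0, 8.60, 9.44 and 9.04 in DKO lungs (-0.75 ± 0.14, adjusted p = 0.00088). Thbs2, a matricellular protein, was at 6.02, 6.60, 6.76 and 6.78 in DKO+NAC lungs and at 8.28, 7.26, 7.74, 7.54 and 7.66 in DKO lungs (-1.16 ± 0.15, adjusted p = 3.4e-05). Thbs2 did not overlap, and for Tgfb1 the second treated lung passed the third untreated one.

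Of 26 genes that respond to glucocorticoids, which ripen the lung before birth, 5 fell and 1 rose (23.1% of the list beside 12.2% of all genes, median -0.25), and of 18 circadian clock genes 5 fell and 0 rose (27.8%, median -0.21). The clock count was 2 with the Xist level as a covariate and 1 with the skeletal muscle or the small RNA level. Per1, a period repressor of the clock that glucocorticoids also induce, was at 10.12, 10.30, 10.28 and 10.53 in DKO+NAC lungs and at 11.03, 11.08, 10.85, 11.20 and 11.23 in DKO lungs (-0.77 ± 0.15, adjusted p = 0.00096). Ciart, another repressor of the clock, was at 5.93, 6.03, 6.14 and 6.41 in DKO+NAC lungs and at 6.48, 6.59, 6.44, 6.65 and 6.74 in DKO lungs (-0.45 ± 0.12, adjusted p = 0.015). Both were lower in every treated lung, and the call of Ciart ended without the first DKO+NAC array (adjusted p = 0.064), against DKO arrays 1 and 3 alone (0.22), and with the Xist, skeletal muscle or small RNA level as a covariate (0.061, 0.068 and 0.089). The hour of collection is not among the labels used here. Because both genes carry the E-box CACGTG, the element the clock activators bind, their RefSeq promoter windows (GRCm38.p6, 250 bases before to 50 after the start, 5′ to 3′ on the gene's strand) are shown with the E-box in capitals, Per1 at chr11:69098699-69098998 on the plus strand and Ciart at chr3:95882179-95882478 on the minus strand.
Per1: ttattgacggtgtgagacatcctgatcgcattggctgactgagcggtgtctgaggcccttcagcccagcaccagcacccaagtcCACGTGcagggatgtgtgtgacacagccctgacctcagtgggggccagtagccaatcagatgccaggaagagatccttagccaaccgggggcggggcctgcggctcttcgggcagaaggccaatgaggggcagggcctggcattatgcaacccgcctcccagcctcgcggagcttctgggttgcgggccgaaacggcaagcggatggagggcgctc
Ciart: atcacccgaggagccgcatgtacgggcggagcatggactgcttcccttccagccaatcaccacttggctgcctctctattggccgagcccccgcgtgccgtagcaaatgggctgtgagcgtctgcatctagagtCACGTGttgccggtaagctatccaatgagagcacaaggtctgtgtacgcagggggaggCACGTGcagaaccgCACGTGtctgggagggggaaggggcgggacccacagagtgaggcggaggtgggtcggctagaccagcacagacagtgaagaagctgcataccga
The letters CACGTG read the same on both strands. They occurred 1 time in the Per1 window shown, 0 times in a second Per1 window of the table, and 3 times in the Ciart window, in a window of 5 of the 16 clock genes that had one, and in 2349 of all 32851 windows, 7.15%.

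Immune and blood genes had calls in some lists and none in others. Of 35 interferon-stimulated genes 3 rose and 0 fell, 8.57% of the list beside 12.2% of all genes, with a median of 0.24. Without DKO+NAC array 4, 6 rose (median 0.33), and with the skeletal muscle level as a covariate 1 rose. Iigp1, an interferon-induced GTPase, was at 6.92, 8.45, 8.35 and 7.71 in DKO+NAC lungs and at 5.99, 7.30, 6.59, 6.73 and 6.49 in DKO lungs (1.24 ± 0.27, adjusted p = 0.0033), and the first treated lung lay within the untreated range. Bst2, tetherin, changed by 0.93 ± 0.25 (adjusted p = 0.016, and 0.056 without the third DKO+NAC array). The adjusted p of Bst2 was 0.31 with the small RNA level and 0.14 with the skeletal muscle level as a covariate. It was 0.16 without DKO arrays 1 and 3 and 0.088 in a fit of the 9 arrays alone. Of 28 neutrophil genes 3 rose and 1 fell, 14.3% of the list and near the share of all genes, and 5 rose and 2 fell without DKO+NAC array 4. Retnlg, a secreted product of neutrophils, was at 9.40, 9.19, 9.78 and 8.12 in DKO+NAC lungs and at 7.67, 8.12, 7.31, 7.80 and 8.22 in DKO lungs (1.30 ± 0.32, adjusted p = 0.0081). The mean deviation of the neutrophil list was 0.13, 0.02, 0.49 and -0.36 in the treated lungs, so the third and the fourth array lay at opposite ends. With the small RNA level as a covariate the adjusted p of Retnlg was 0.15.

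Of 28 macrophage and monocyte genes 3 rose and 4 fell (25% of the list beside 12.2% of all genes), and 4 rose and 1 fell against DKO arrays 1 and 3 alone. Ctss, a lysosomal protease of antigen-presenting cells, was at 9.16, 8.89, 8.78 and 8.55 in DKO+NAC lungs and at 8.20, 8.26, 8.21, 7.90 and 8.11 in DKO lungs (0.71 ± 0.12, adjusted p = 0.00043), and Lgals3, a galectin of macrophages and epithelium, at 7.21, 6.89, 6.95 and 7.23 in DKO+NAC lungs and 7.94, 7.77, 7.46, 7.62 and 7.78 in DKO lungs (-0.65 ± 0.12, adjusted p = 0.00083). Each separated the groups, in opposite directions. The lists of 16 thymus and T cell genes and of 13 B cell genes held 0 called genes each in limma at an adjusted p below 0.05. Gimap4, a GTPase of lymphocytes and endothelium, was at 8.10, 8.07, 8.08 and 7.29 in DKO+NAC lungs and at 6.97, 7.18, 6.31, 6.71 and 6.40 in DKO lungs (1.17 ± 0.17, adjusted p = 9.5e-05), without overlap even for the fourth treated lung, the lowest. Of 18 erythroid genes 7 fell and 0 rose (38.9%, median -0.32), led by Ank1, the anchor of the red cell membrane skeleton, at 5.34, 5.54, 5.33 and 5.64 in DKO+NAC lungs and 5.95, 5.81, 6.40, 6.25 and 6.30 in DKO lungs (-0.68 ± 0.12, adjusted p = 0.00039). The erythroid count was 3 with the Xist level as a covariate and 1 against DKO arrays 1 and 3 alone, and the list's mean deviation was 0.06, 0.07, 0.32, 0.45 and 0.41 in DKO lungs 1 to 5 against -0.12 to 0.03 in the treated lungs.

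Several chromatin regulators fell. Of 30 chromatin and lysine methyltransferase genes 9 fell and 0 rose (30% of the list beside 12.2% of all genes, median -0.20). Beside Kmt2d, Kmt2b was at 7.44, 7.38, 7.42 and 6.93 in DKO+NAC lungs and at 8.53, 8.05, 8.52, 8.40 and 8.29 in DKO lungs (-1.07 ± 0.16, adjusted p = 8.8e-05). Med12, a subunit of the Mediator kinase module, was at 7.66, 7.90, 7.71 and 7.52 in DKO+NAC lungs against 8.71, 8.15, 8.48, 8.56 and 8.37 in DKO lungs (-0.76 ± 0.10, adjusted p = 4.5e-05). The acetyltransferase Ep300 changed by -0.54 ± 0.11, with 8.89 to 9.28 in DKO+NAC lungs and 9.46 to 9.75 in DKO lungs, and none of the 3 overlapped. Of 38 genes of splicing and nuclear RNA processing, 9 rose and 4 fell (34.2%, median 0.16), whereas with the small RNA level as a covariate 1 rose and 4 fell (median 0.00). Ddx17, an RNA helicase, was at 10.10, 10.03, 10.06 and 10.01 in DKO+NAC lungs and at 9.12, 9.49, 9.59, 9.26 and 9.0 in DKO lungs (0.76 ± 0.11, adjusted p = 5.4e-05). Srrm2, a scaffold of nuclear speckles, was at 10.91, 10.86, 10.81 and 10.99 in DKO+NAC lungs and at 11.57, 11.60, 11.51, 11.72 and 11.57 in DKO lungs (-0.70 ± 0.10, adjusted p = 6.2e-05). Both separated the groups. Of 45 cytosolic ribosomal protein genes 6 rose and 2 fell, 17.8% of the list beside 12.2% of all genes, with Rpl5 changed by 0.86 ± 0.14 and Rplp0 by -0.97 ± 0.15. Transcripts of near-identical ribosomal protein pseudogenes can add to either signal.

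Small non-coding RNAs differed by class. Of 12 polymerase III and other small RNA genes 7 fell and 0 rose (median -0.51). Rny1, a Y RNA bound by the Ro protein, was at 11.06, 11.58, 11.15 and 10.85 in DKO+NAC lungs and at 12.13, 11.59, 11.86, 11.97 and 11.95 in DKO lungs (-0.74 ± 0.16, adjusted p = 0.0027), separated by only 0.01 between the second array of each group. Of 47 C/D box small nucleolar RNA genes (Snord), grouped after their values were seen, 13 (27.7%) fell and 1 rose. Snord1b was at 8.25, 8.32, 8.54 and 7.55 in DKO+NAC lungs and at 9.74, 9.21, 9.75, 9.54 and 9.69 in DKO lungs (-1.42 ± 0.24, adjusted p = 0.00032), without overlap. In the same class 12 rose and 2 fell with NAC in Control lungs and 11 rose and 1 fell in HRas-KO lungs. Snora69, an H/ACA box RNA, had the lowest change of any called gene (-1.82 ± 0.40, adjusted p = 0.0036). With the mean of the 12 small RNA genes as a covariate the log2 change was -0.29 for Rny1 (adjusted p = 0.39), -0.83 for Snord1b (0.085) and -0.49 for Snora69 (0.55). Rny1 is itself 1 of the 12, and their mean separated the groups, so these losses were partly fixed in advance. The list's mean deviation was -0.20, 0.26, 0.13 and -0.11 in the treated lungs and 0.74, 0.38, 0.90, 0.43 and 0.34 in the untreated lungs, and what the RNA purification kept of such short RNAs was not tested.

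Some microRNA genes rose. Of 484 microRNA genes, also grouped after their values were seen, 44 (9.09%) rose, 10 (2.07%) fell and 430 were not called, beside 5.74% higher and 6.46% lower of all genes. The class median was 0.05, against 0.02 over all genes. A probe set of a whole-transcript array does not tell a mature microRNA from its primary transcript, so these are levels at the gene. RefSeq (GRCm38.p6) held a hairpin for 400 of the 484. The mature sequences of the raised genes discussed below are shown 5′ to 3′ with the seed, bases 2 to 8, in capitals, because they fall into families by seed.
let-7c-5p: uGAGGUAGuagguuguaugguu
let-7a-5p: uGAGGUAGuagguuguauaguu
let-7d-5p: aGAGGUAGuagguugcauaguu
miR-99a-5p: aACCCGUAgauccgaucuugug
miR-15b-5p: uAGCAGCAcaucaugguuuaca
miR-16-5p: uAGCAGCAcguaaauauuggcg
miR-18a-5p: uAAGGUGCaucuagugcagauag
miR-19a-3p: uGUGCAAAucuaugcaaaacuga
miR-20a-5p: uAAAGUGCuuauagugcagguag
miR-218-5p: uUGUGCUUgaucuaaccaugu
The 3 let-7 members share the seed GAGGUAG, and miR-15b and miR-16 share AGCAGCA. Let-7c and miR-99a lie side by side on chromosome 16 (hairpins at chr16:77599657-77599750 and chr16:77598936-77599000), let-7a-1 and let-7d on chromosome 13, miR-15b and miR-16-2 on chromosome 3, and the genes of miR-18a, miR-19a and miR-20a on chromosome 14.

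The let-7 family is known for restraining growth genes as tissues mature, and the cluster that holds miR-18a, miR-19a and miR-20a for promoting proliferation, also in lung. Mirlet7c-1 was at 5.14, 5.66, 6.14 and 5.55 in DKO+NAC lungs and at 3.07, 3.52, 3.26, 4.61 and 3.44 in DKO lungs (log2 change 2.04 ± 0.23, adjusted p = 4.6e-06). Its neighbour Mir99a was at 6.42, 6.69, 6.82 and 6.21 in DKO+NAC lungs and at 3.98, 4.93, 4.07, 5.53 and 5.05 in DKO lungs (1.82 ± 0.26, adjusted p = 5.8e-05). Both rose in every treated lung above every untreated one, with DKO array 4 the highest of its group in each. Mir19a was at 5.42, 5.96, 5.30 and 5.29 in DKO+NAC lungs and at 3.15, 4.27, 3.55, 4.61 and 3.87 in DKO lungs (1.60 ± 0.25, adjusted p = 0.00013), and Mir15b at 4.64, 5.24, 4.40 and 4.20 in DKO+NAC lungs and 2.99, 3.51, 2.89, 3.83 and 3.55 in DKO lungs (1.26 ± 0.22, adjusted p = 0.00049). In every DKO lung, Mirlet7c-1, Mir99a, Mir19a and Mir15b lay below 5.71, the lowest median over the tested genes in a DKO array. These are low levels on this scale, and a log2 change that starts from them is uncertain in size. Mirlet7a-1 changed by 1.08 ± 0.19, Mirlet7d by 1.45 ± 0.25, Mir16-2 by 1.13 ± 0.25, Mir18 by 1.49 ± 0.32 and Mir20a by 1.52 ± 0.33. Mir218-1 had the widest spread, at 7.57, 8.75, 8.47 and 7.72 in DKO+NAC lungs and at 4.56, 6.93, 4.22, 7.42 and 6.55 in DKO lungs (2.20 ± 0.44, adjusted p = 0.0014). DKO arrays 1 and 3 were the lowest there. With the small RNA level as a covariate the calls of Mirlet7d, Mir16-2, Mir18, Mir20a and Mir218-1 ended, at adjusted p of 0.069, 0.19, 0.24, 0.13 and 0.21.

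Mir23b was at 7.97, 8.48, 8.30 and 8.43 in DKO+NAC lungs and at 5.98, 7.77, 6.08, 7.63 and 6.68 in DKO lungs (1.47 ± 0.25, adjusted p = 0.00029, and 0.060 with the small RNA covariate). The smooth muscle microRNA genes Mir143 and Mir145a overlapped between the groups. Mir143 was at 8.21, 8.23, 8.18 and 7.65 in DKO+NAC lungs and at 6.08, 7.47, 5.98, 8.06 and 6.78 in DKO lungs (1.19 ± 0.28, adjusted p = 0.0057), and the fourth treated lung lay below DKO array 4. Mir145a changed by 1.33 ± 0.43 (adjusted p = 0.041), a call that ended without DKO array 1 or 3 or DKO+NAC array 1, 2 or 3, at adjusted p of 0.093 to 0.12.

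**Figure D3:**
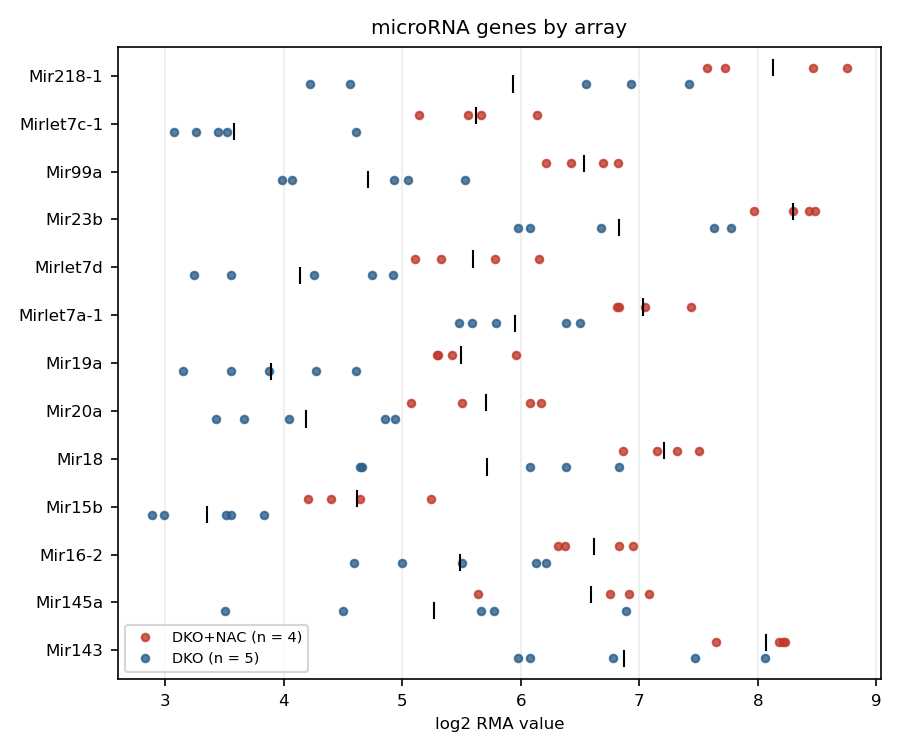
Log2 RMA values of 13 microRNA genes, 1 point per lung, with the 4 DKO+NAC arrays (red) above the 5 DKO arrays (blue) and black ticks at the group means. In all but Mir145a and Mir143 the red points lie wholly to the right of the blue ones, and DKO arrays spread more widely than DKO+NAC arrays in Mir218-1 and Mir23b.

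The change in double knockout lungs was then set against the change with NAC in the other genotypes, which share no arrays with it. NAC went with 3002 called genes (13.5%) in Control lungs, 7.86% higher and 5.68% lower. It went with 2625 (11.8%) in HRas-KO lungs, 6.73% higher and 5.1% lower, and with 1425 (6.42%) in NRas-KO lungs, 2.86% higher and 3.56% lower. Of the 1273 genes that rose in the double knockout, 596 (46.8%) also rose in Control lungs, where they were 34.2% of the genes that rose, and of the 1433 that fell, 541 (37.8%) also fell in Control lungs, 43.0% of those. The shared genes were 494 raised and 463 lowered in HRas-KO, and 305 raised and 425 lowered in NRas-KO. A called gene of the double knockout was called in the opposite direction 14 times in Control, 11 times in HRas-KO and 2 times in NRas-KO. In all 4 genotypes, 245 genes rose and 301 fell. Myl12a rose by 1.41, 1.34 and 1.79 in Control, HRas-KO and NRas-KO lungs, Klhl28 by 1.06, 1.20 and 0.91, and Vamp7 by 1.59, 1.32 and 0.78. Hspg2 changed by -1.66, -1.63 and -1.65 on the log2 scale, Kmt2d by -1.35, -1.49 and -1.42, Lrp1 by -1.16, -1.10 and -1.20, and Col1a1 by -1.01, -1.06 and -1.26, in the same order of genotypes. For these 7 genes the double knockout did not differ from the mean of the other 3 by the test of the difference (adjusted p of 0.17 to 0.98). In the double knockout, 577 genes rose and 765 fell that were called in none of the other 3 genotypes, a count that does not by itself show a difference between genotypes.

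The difference itself was tested in the same limma model. It rests in part on the untreated DKO arrays, whose code starts occurred in no other group. Genotype and coded set therefore cannot be told apart in this difference. The NAC change in DKO minus the mean NAC change in the other 3 genotypes passed for 653 genes (2.94%), 269 (1.21%) above and 384 (1.73%) below, and 278 of them were also called in DKO+NAC against DKO, 106 raised and 172 lowered. With each array centred on its median, 205 lay above and 583 below. The median NAC change of 4 sex-linked genes was -1.99 in DKO and -0.11 in Control. It was 2.74 in HRas-KO and 1.37 in NRas-KO, so these genes moved in opposite directions across the genotypes compared. With the Xist level as a covariate, chosen after seeing the data, 396 genes passed. Against the Control change alone, 86 genes (0.388%) passed, 26 above and 60 below, and the split was 25 and 103 after centring and 25 and 26 after a second quantile normalisation. The counts without 1 array ranged over 362 to 722 for the first difference, lowest without the second DKO+NAC array, and over 15 to 148 for the second, lowest without the first Control array and highest without the third DKO array.

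Among the genes whose NAC change exceeded that of the other genotypes, Nes averaged 7.95 ± 0.33 in DKO+NAC and 6.92 ± 0.46 in DKO lungs, against 8.03 ± 0.05 in Control+NAC and 8.56 ± 0.63 in Control lungs (SD). NAC went with changes of 1.03 in the double knockout and -0.53, -0.93 and -0.78 in Control, HRas-KO and NRas-KO lungs, and the difference from their mean was 1.77 ± 0.28 (adjusted p = 0.0020). Gimap4 averaged 7.88 ± 0.40 in DKO+NAC and 6.71 ± 0.37 in DKO lungs, while Control+NAC and Control lungs averaged 7.81 ± 0.12 and 7.76 ± 0.16 (difference 1.18 ± 0.21, adjusted p = 0.0038). The untreated double knockout thus stood apart from the other 3 values in both genes, and its arrays shared no code start with any other group. Pdgfb was called in the same direction (difference 1.40 ± 0.31, adjusted p = 0.012, and 0.058 with the small RNA covariate). Ddx17 changed by 0.76 in the double knockout and by 0.22, 0.21 and 0.17 in the others (difference 0.56 ± 0.13, adjusted p = 0.017). Against DKO arrays 1 and 3 alone the adjusted p of Ddx17 was 0.053.

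Among the genes whose change lay below that of the other genotypes, Got1 averaged 6.73 ± 0.21 in DKO+NAC and 7.96 ± 0.28 in DKO lungs, against 6.77 ± 0.20 in Control+NAC and 7.05 ± 0.09 in Control lungs. Its difference was -0.93 ± 0.17 from the mean of the other genotypes (adjusted p = 0.0047) and also passed against Control alone (adjusted p = 0.046). Thbs2 averaged 6.54 ± 0.36 in DKO+NAC and 7.70 ± 0.37 in DKO lungs, against 6.80 ± 0.14 in Control+NAC and 6.74 ± 0.14 in Control lungs (-1.01 ± 0.19, adjusted p = 0.0043; against Control alone 0.024). Rasd1 (difference -1.48 ± 0.34, adjusted p = 0.017), Tnfrsf10b (-1.36 ± 0.28, adjusted p = 0.0091) and Mfap5 (-1.16 ± 0.25, adjusted p = 0.012) likewise had their highest mean of the 8 groups in untreated double knockouts. Ctns (-0.73 ± 0.16, adjusted p = 0.014), Gsta4 (-0.81 ± 0.17, adjusted p = 0.0098), Nqo1 (-0.70 ± 0.14, adjusted p = 0.0085), Slc2a1 (-0.85 ± 0.19, adjusted p = 0.012) and Hspa5 (-0.61 ± 0.10, adjusted p = 0.0030) also passed. With the mean of its probe sets the difference of Slc2a1 was -0.42 (adjusted p = 0.082). Without the first DKO+NAC array the adjusted p of Rasd1 was 0.056, and against DKO arrays 1 and 3 alone Rasd1, Ctns, Gsta4, Nqo1 and Slc2a1 stood at 0.058, 0.060, 0.11, 0.064 and 0.088. Of the epithelial sodium channel genes none passed: Scnn1a changed by -0.88 in the double knockout and by -0.83, -0.55 and -0.41 in Control, HRas-KO and NRas-KO lungs (difference -0.28 ± 0.15, adjusted p = 0.36).

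**Figure D4:**
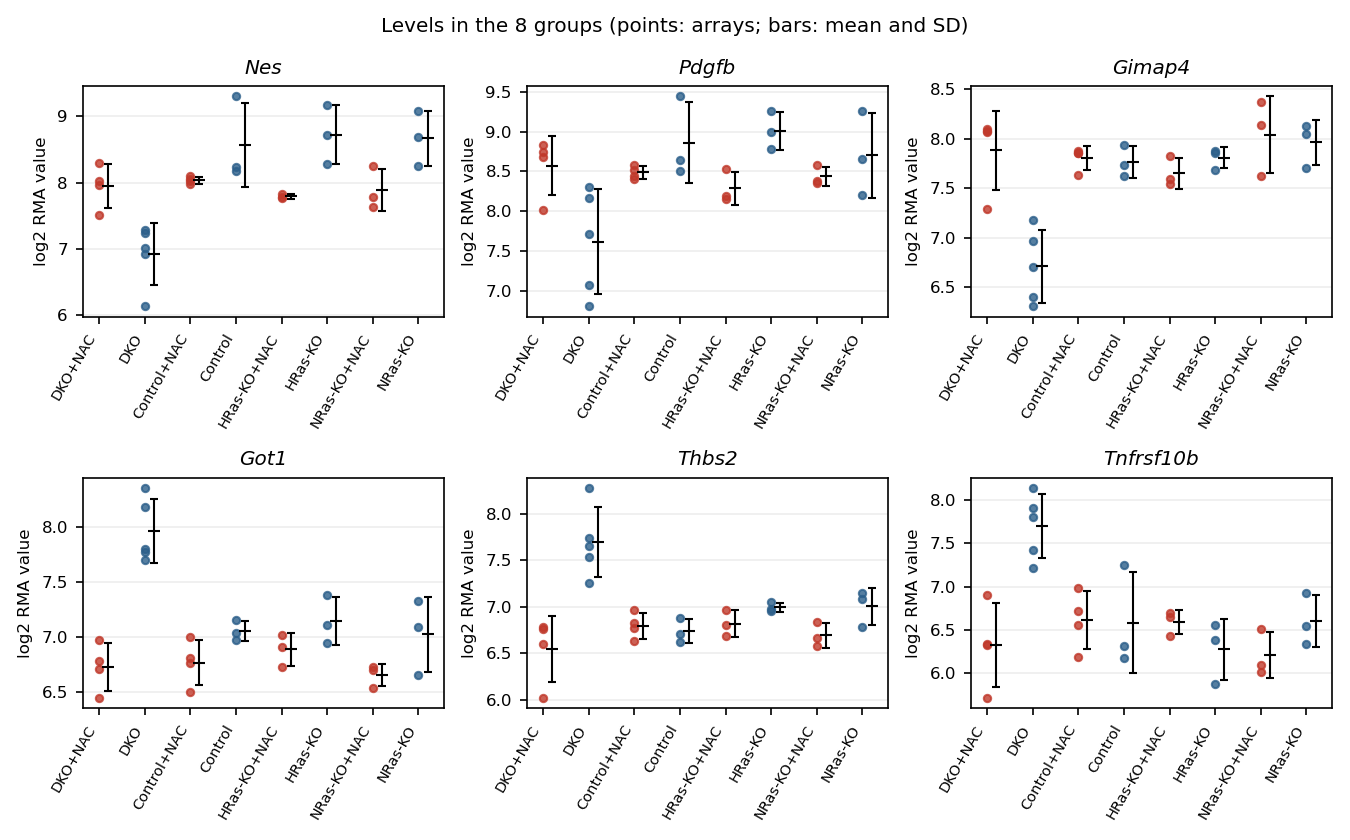
Log2 RMA values of 6 genes whose NAC change differed in the double knockout, in all 8 groups, with 1 point per array (red with NAC, blue without) and the mean with its SD to the right of the points. In each panel the DKO mean, second from the left, is the lowest of the 8 (Nes, Pdgfb and Gimap4) or the highest (Got1, Thbs2 and Tnfrsf10b), while single arrays of Pdgfb and Tnfrsf10b overlap with other groups.

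By class, 16 of the 484 microRNA genes lay above the other genotypes and 0 below, and 10 of the 47 Snord genes below and 0 above. Mirlet7c-1 averaged 5.62 ± 0.41 in DKO+NAC and 3.58 ± 0.60 in DKO lungs, against 5.43 ± 0.20 in Control+NAC and 4.22 ± 0.34 in Control lungs (difference from the other genotypes 1.43 ± 0.28, adjusted p = 0.0062). Its untreated levels were low on this scale. Mir23b averaged 8.30 ± 0.23 in DKO+NAC and 6.83 ± 0.84 in DKO lungs, against 8.40 ± 0.11 and 8.29 ± 0.23 in Control+NAC and Control lungs (1.55 ± 0.30, adjusted p = 0.0057). Snord1b averaged 8.17 ± 0.43 in DKO+NAC and 9.59 ± 0.23 in DKO lungs, against 7.80 ± 0.17 and 8.0 ± 0.66 in Control+NAC and Control lungs (-1.44 ± 0.29, adjusted p = 0.0082). Untreated double knockouts had the lowest mean of the 8 groups for Mirlet7c-1 and Mir23b and the highest for Snord1b.

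The double knockout was finally set against Control with and without NAC, a pair of comparisons that share no arrays. Each Control+NAC array shared its code start with a DKO+NAC array, whereas no Control array shared one with a DKO array. Without NAC, genotype and coded set thus cannot be told apart, and the 2 counts are not alike in this respect. DKO+NAC lungs differed from Control+NAC lungs in 0 genes in limma at an adjusted p below 0.05 (2116 genes at an unadjusted p below 0.05), and DKO lungs differed from Control lungs in 850 (3.83%), 550 (2.48%) higher and 300 (1.35%) lower. The count with NAC was between 0 and 14 when single arrays were left out, and 14 without the second Control+NAC array. Of the 850 genes, 479 (56.4%) had the same sign with NAC. The 550 higher genes had a median of 0.02 in DKO+NAC minus Control+NAC and 0.54 in DKO minus Control, and the 300 lower genes -0.04 and -0.55. These genes were chosen by the second comparison, which fixes the size of its medians. Got1 differed by -0.03 between DKO+NAC and Control+NAC and by 0.91 between DKO and Control, and Nes by -0.09 and -1.64. Since DKO against Control and DKO+NAC against DKO share the DKO arrays, an untreated group that stands apart enters both.

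Spans and levels were also set beside the calls. Protein-coding genes that rose had a median genomic span of 27.7 kb and those that fell 26.1 kb, against 18.7 kb over all tested genes. Genes changed in all 4 genotypes were longer still, with 32.1 kb for those that rose and 31.4 kb for those that fell. Genes whose difference from the other genotypes also passed had shorter medians, 14.6 kb for the 106 that rose and 22.1 kb for the 172 that fell. For the genes changed in all 4 genotypes, median log2 levels were 8.56 and 7.99, against 7.83 and 7.69 for all genes that rose and fell in the double knockout and 6.07 over all genes. These values describe sets chosen by the same contrast and carry no test.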

How the data were processed

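RNA from whole newborn lungs was hybridised to 1-colour whole-transcript arrays. The authors deposited log2 values per probe set: per the submitters' processing notes, RMA and affy were used. Their versions are not given here. Array precision is limited by the number of arrays, and array medians lay between 5.25 and 5.41. Of 41345 probe sets, the platform annotation gave 1 gene symbol to 23521, and several to 1814, and did not list 16010, and only those with 1 symbol were used. For 1082 genes with several probe sets the brightest was taken, which left 22180 genes. Limma 3.58.1 in R 4.3.3 was fitted to 8 group means over all 28 arrays, so that the groups share 1 estimate of spread, with eBayes moderation and Benjamini-Hochberg adjustment over all genes. Differences between genotypes were contrasts in the same fit. Values after ± are standard errors for log2 changes and SDs for means. The fit was tested on simulated data. Array correlations among the 9 lungs ran from 0.9766 to 0.9942, so no pair was counted as 1 sample.

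The members and 61 gene lists were chosen with earlier results of these data known. Named genes are Nras, the 15 most raised and 15 most lowered called genes without overlap, the 5 highest and 5 lowest of each difference, and the 4 of smallest p and the defining genes of each list, without predicted, clone-named, small RNA, immune receptor, odorant receptor and sex-linked marker genes. Laminins, nidogen, agrin, Scnn1b, Tcf21, Asah1, microRNA and small nucleolar RNA genes were named after their values were seen. A list's mean deviation is the average of its members' distances from their mean over all arrays. Hras was not analysed here.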

Additional observations from a re-analysis of the deposited data

Results flagged for a closer look

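The NAC change in double knockout lungs differed from the mean NAC change in the other 3 genotypes for 653 genes by the limma test of that difference, and from the change in Control lungs for 86. Among the genes named, the difference lay above 0 for Azin1 (0.52), Bst2 (1.27), Ddx17 (0.56), Gimap4 (1.18), Iigp1 (1.21), Kdr (0.80), Nes (1.77), Pdgfb (1.40), Tcf21 (0.87) and Usp12 (0.63), and for Mir143 (1.33), Mir145a (1.88), Mir23b (1.55), Mir99a (1.42) and Mirlet7c-1 (1.43). It lay below 0 for Ctns (-0.73), Cyp2b10 (-1.19), Got1 (-0.93), Gsta4 (-0.81), Hspa5 (-0.61), Mfap5 (-1.16), Nqo1 (-0.70), Rasd1 (-1.48), Slc2a1 (-0.85), Snord1b (-1.44), Sphk1 (-0.40), Thbs2 (-1.01) and Tnfrsf10b (-1.36). Several of these differences lost the call when 1 array was left out: Azin1 for any of 19 arrays (adjusted p of 0.051 to 0.12), Iigp1 for 19 (0.052 to 0.13), Mir145a for 21 (0.052 to 0.12), Sphk1 for 18 (0.05 to 0.086), Cyp2b10 for 9 (0.05 to 0.087), Mir143 for 6 (0.057 to 0.074), Bst2 and Usp12 for 2 each, and Rasd1 and Tcf21 for 1 each. With the mean of a gene's probe sets that of Usp12 was 0.29 (adjusted p = 0.28) and that of Slc2a1 -0.42 (adjusted p = 0.082). The small RNA level as a covariate ended it for Azin1, Bst2, Ctns, Cyp2b10, Ddx17, Iigp1, Kdr, Mfap5, Mir143, Mir145a, Mir23b, Mir99a, Pdgfb, Slc2a1, Snord1b, Sphk1, Tnfrsf10b and Usp12.

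A single lung stood far from the rest of its group in 31 of 348 sets of values, where chance alone gives about 5%. The fourth DKO+NAC lung stood apart, low, in Abcc1 (6.72), Ctns (7.22), Gimap4 (7.29), Kmt2b (6.93), Mir143 (7.65) and Napsa (9.48), and high in Hspa5 (8.46) and Txnrd1 (9.54). The first DKO+NAC lung stood apart in Ccdc40 (6.04), Foxj1 (6.46), Gclm (8.49), Myh6 (6.14) and Slc2a1 (8.83), and the second in Slc7a5 (8.23). In the untreated group, the third DKO lung stood apart in Cdkn1a (10.93), Myl12a (8.05), Ndufc2 (9.22) and Nid1 (10.63), the fourth in Lrp1 (9.92), the first in Notch1 (8.60) and the second in Ccdc40 (6.98). Among list means, the fourth DKO+NAC lung stood apart for sphingolipid (-0.03) and B cell genes (0.14) and the first for antigen presentation (-0.30) and ERK pathway genes (-0.28). Of the DKO lungs, the fifth did so for liver and gut genes (1.30) and keratins (0.51), the fourth for lymphatic genes (-0.08), the third for VEGF signalling (-0.04) and smooth muscle genes (-0.30), and the second for chemokines (0.19).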

How the results depend on the processing

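No called change of a gene named here turned its sign under the alternatives tried, but the balance of calls within gene lists did: of 60 lists, more calls lay on the opposite side in 11 without DKO arrays 2, 4 and 5, 7 with the Xist covariate, 5 with the small RNA covariate, 3 without DKO+NAC array 4, 2 without DKO arrays 1 and 3 and 1 with the skeletal muscle covariate. The count of DKO+NAC against DKO (2706) was 766 when a change of at least 1.5-fold was also asked for and 1476 when only the 9 double knockout arrays were fitted, which leaves fewer samples for the spread; it lay between 2606 and 3003 when probe sets, dim genes, scaling, moderation or array weights were handled differently. Leaving out single arrays gave 2045 to 2838 there, 15 to 148 for the difference from Control, 362 to 722 for the difference from the other genotypes and 0 to 14 for DKO+NAC against Control+NAC. The difference from Control (86) was 51 after a second quantile normalisation, 136 with array weights and 50 with the code start as a random block. Under that block DKO+NAC against DKO held 2383 genes and the difference from the other genotypes 490. DKO+NAC against Control+NAC (0) was 1 with array weights and 1 with the replicate block. The replicate numbers did not pair the arrays: same-number deviations of DKO+NAC and DKO correlated at 0.31, 0.12, -0.08 and -0.12, and only the array numbered 1 correlated best with its own number. With the replicate block the counts were 2332, 61 and 491 for the change and its 2 differences.

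The following were chosen after seeing the data. With the Xist level as a covariate the difference from Control held 57 genes and that from the other genotypes 396. The difference from Control was 403 without DKO arrays 2, 4 and 5 and 191 without DKO arrays 1 and 3. With the small RNA list as a covariate the counts were 988 for the change, 44 and 367 for its differences from Control and from the other genotypes, and 1 for DKO+NAC against Control+NAC. The mean of that list did not overlap between DKO+NAC and DKO arrays, so it and the group cannot be fully told apart. The skeletal muscle covariate gave 1906 for the change. The cause of these moves was not tested. Precision is limited by the 4 and 5 arrays.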
